A study of Homo sapiens with 12 samples.

Results

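The retinoid metabolism genes described here are RDH10, RDH11, RDH13, RDH14, DHRS3, ALDH1A1, ALDH1A3, RARA, RARB and RARG, found by symbol in a count table of MG63 cells, a human osteosarcoma line. They are 10 of the 50868 genes in the table, and 9 of them had enough reads to be tested. RDH10 was chosen by its lower read counts in the libraries labelled CCT4 siRNA than in those with control siRNA, and the other members for their place in the same pathway, with results of these data known. The siRNA values of the members are therefore a description, given with no test. RNA was sequenced in 12 libraries in 4 groups of 3: cells given 1 µM anticarin-beta for 18 hours, cells given vehicle, cells transfected with CCT4-specific siRNA for 2 days, and cells transfected with Allstar control siRNA. All grew in DMEM with serum, and 1 cell line stands for osteosarcoma. The labels do not name separate cultures, so a p-value measures the spread between libraries that may be technical replicates.

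Retinol is carried to cells in the blood, held there by binding proteins and stored as retinyl esters. Retinol dehydrogenases oxidize it reversibly to retinaldehyde, and other enzymes of the same short-chain family reduce retinaldehyde back to retinol. Aldehyde dehydrogenases of the ALDH1A group turn retinaldehyde into retinoic acid, which enzymes of the CYP26 family break down. Retinoic acid receptors bind DNA as partners of retinoid X receptors at paired copies of a short motif, exchange corepressors for coactivators when retinoic acid is bound, and act in skeletal development, among other processes.

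CCT4, a subunit of the chaperonin that folds actin and tubulin, is the gene the siRNA was labelled to target. Its level was 206 ± 9.18 CPM (counts scaled by TMM to a common library size) in libraries labelled CCT4 siRNA and 177 ± 14.4 CPM with control siRNA (SD, n = 3 each). The log2 fold change was 0.22 ± 0.09 (SE; edgeR adjusted p = 0.129), so lower CCT4 mRNA was not measured there. CCT4 averaged 82.3 ± 8.49 CPM with anticarin-beta and 236 ± 22.9 CPM with vehicle (SD, n = 3 each).

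Library totals ran from 13393750 to 17492095 counts. Mitochondrially encoded genes took 1.16% to 1.36% of the counts with anticarin-beta and 4.74% to 5.10% with vehicle, and 1.23% to 1.25% in the libraries labelled CCT4 siRNA against 2.08% to 2.30% with control siRNA. Their part in the results was not tested. Of 17717 genes tested with edgeR at an adjusted p under 0.05, anticarin-beta against vehicle called 73.0%, with 34.9% higher and 38.0% lower. CCT4 siRNA against control siRNA called 19.7%, with 10.7% higher and 9.04% lower. Under library totals alone, without TMM, the compound comparison had 4292 genes higher and 8959 lower in place of 6186 and 6740, and the median over all tested genes moved to -0.48 in place of -0.06 on the log2 scale. The siRNA comparison then had 902 higher and 2800 lower in place of 1892 and 1601, with a median of -0.12 in place of 0.01. The 11 osteoblast markers summed to between 14241 and 14807 CPM with anticarin-beta and between 8961 and 11080 CPM with vehicle. They summed to between 3065 and 3178 CPM in the libraries labelled CCT4 siRNA and between 2300.04 and 2351 CPM with control siRNA. COL1A1, SPARC and RUNX2 were detected, while SPP1 reached at most 3 counts and IBSP at most 1 count in a library. The 5 epithelial markers summed to at most 5.59 CPM, the 4 endothelial markers to at most 15.5 CPM, and the 5 blood cell markers to between 20.8 and 93.7 CPM with CD3E at 0.

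RDH10, which makes retinaldehyde from retinol in the endoplasmic reticulum and is needed for retinoic acid in the mouse embryo, was 10.1-fold lower with anticarin-beta. RDH11, RDH13, RDH14 and ALDH1A3 were lower too, whereas DHRS3, RARA, RARB and RARG were higher, so that 5 of the 9 members tested fell and 4 rose. All 9 were called, beside 73.0% of all tested genes, and in all 9 the anticarin-beta and vehicle libraries did not overlap, beside 74.6% of all tested genes. In the libraries labelled CCT4 siRNA, RDH10 was 3.14-fold lower than with control siRNA and RDH14 1.60-fold lower, while ALDH1A3, RDH13, RARA, RARB and RARG differed by at most 0.20 on the log2 scale. The libraries of those 2 groups did not overlap for 41.8% of all tested genes. In bulk RNA, fewer cells in a given state and less RNA per cell cannot be told apart.

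**Figure D1:**
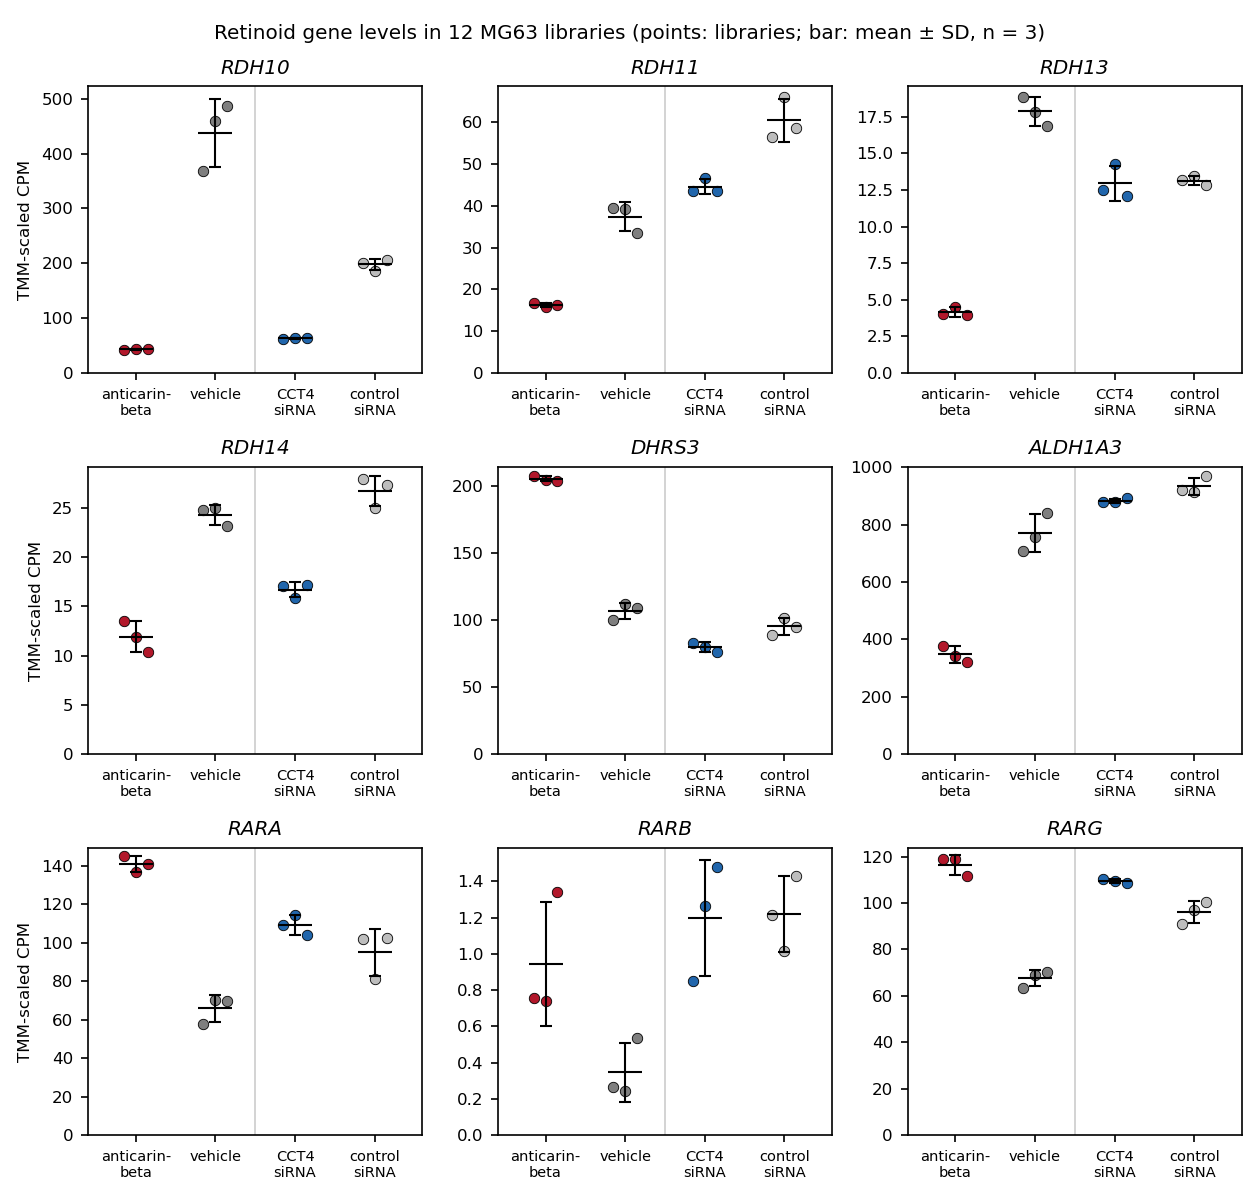
Level of each member in CPM scaled by TMM (linear axes from 0) in the 12 libraries, by group, for the 9 members tested, with points for libraries and bars for the mean ± SD. The 3 anticarin-beta libraries of RDH10 sit between 42.2 and 43.8 CPM, below every other library, while those of DHRS3 sit between 203 and 207 CPM, above every other library.

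RDH10 (ENSG00000121039) spans bases 73294612 to 73325281 of chromosome 8 on the plus strand in GRCh38. It had 42.2, 43.4 and 43.8 CPM with anticarin-beta, against 368, 459.7 and 486 CPM with vehicle. The anticarin-beta libraries lay within a narrow band, and even the lowest vehicle library stood far above it. The log2 fold change was -3.34 ± 0.10 (SE; edgeR adjusted p = 3e-11). With CCT4 siRNA on the label, the libraries had 61.9, 62.9 and 64.2 CPM, against 201, 187 and 207 CPM with control siRNA. These groups did not overlap either, and the log2 fold change was -1.65 ± 0.09 (SE), the value for which the gene was chosen.

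The 2 reference groups of RDH10 were not at 1 level. Its mean was 438 ± 62.2 CPM with vehicle and 198 ± 10.3 CPM with control siRNA (SD, n = 3 each), and the order from high to low was vehicle, control siRNA, CCT4 siRNA and anticarin-beta, with no overlap between neighbours. The vehicle and siRNA cultures differ in transfection and in time, so these levels are set side by side only. An antisense gene, RDH10-AS1, shares 278 exon bases with RDH10 on the other strand. It had 16, 5 and 26 counts with anticarin-beta, against 75, 57 and 116 counts with vehicle, a log2 fold change of -1.76 ± 0.39 (SE; edgeR adjusted p = 0.00135). The libraries labelled CCT4 siRNA held 21, 23 and 31 counts, against 40, 53 and 36 with control siRNA (log2 fold change -0.74 ± 0.38, SE; edgeR adjusted p = 0.204). The sources used here do not say whether the counting used strand, and without it the reads in the shared bases cannot be told apart. Adding all counts of RDH10-AS1 to RDH10 left the log2 ratio of the means at -3.31 with anticarin-beta and at -1.63 with CCT4 siRNA.

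RDH11 (ENSG00000072042, chromosome 14, bases 67676801 to 67695814, minus strand) encodes a microsomal enzyme that mainly reduces retinaldehyde to retinol. It had 16.8, 15.7 and 16.2 CPM with anticarin-beta, against 39.5, 39.3 and 33.4 CPM with vehicle. The treated libraries were at less than the lowest vehicle level, and the log2 fold change was -1.20 ± 0.09 (SE; edgeR adjusted p = 1.2e-07). RDH11 had 43.5, 46.7 and 43.6 CPM in the libraries labelled CCT4 siRNA, against 56.6, 66.2 and 58.6 CPM with control siRNA. The log2 fold change was -0.44 ± 0.09 (SE), with no overlap.

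RDH14 (ENSG00000240857, chromosome 2, bases 18554723 to 18560680, minus strand) is a related dehydrogenase of the same family. It had 13.5, 11.9 and 10.4 CPM with anticarin-beta, against 24.8, 25.0 and 23.2 CPM with vehicle. All treated libraries were lower, by a log2 fold change of -1.03 ± 0.11 (SE; edgeR adjusted p = 1.64e-06). RDH14 had 17.1, 15.8 and 17.2 CPM in the libraries labelled CCT4 siRNA, against 27.9, 25.0 and 27.3 CPM with control siRNA. The groups did not overlap, and the log2 fold change was -0.68 ± 0.10 (SE), the next largest decrease among the members after that of RDH10. Unnamed transcripts AL049779.1 and AC011476.2, with 20 and 18 counts over the 12 libraries, share exon bases with RDH11 and RDH13 on their strands, and AC011476.3, with 161 counts, shares 349 bases with RDH13 on the other strand. A readthrough gene that shares 264 of its exon bases, NT5C1B-RDH14, is listed at 0 counts.

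RDH13 (ENSG00000160439, chromosome 19, bases 55039108 to 55071291, minus strand) encodes a mitochondrial member of the family. It had 4.03, 4.53 and 3.93 CPM with anticarin-beta, against 18.9, 17.9 and 16.9 CPM with vehicle. The log2 fold change was -2.10 ± 0.12 (SE; edgeR adjusted p = 4.43e-09), below that of RDH10 in size and above those of RDH11 and RDH14. RDH13 had 12.5, 14.3 and 12.1 CPM in the libraries labelled CCT4 siRNA, against 13.2, 13.4 and 12.8 CPM with control siRNA. These groups overlapped, and the log2 fold change was -0.02 ± 0.10 (SE).

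Per kilobase of exon, the mean level of RDH10 was 8.11 CPM with anticarin-beta and 82.3 CPM with vehicle. RDH14 was at 7.52 CPM per kilobase with anticarin-beta and 15.3 CPM per kilobase with vehicle, RDH11 at 2.94 and 6.78, and RDH13 at 0.484 and 2.08. RDH10 thus held 42.6% ± 2.80 of the summed per-kilobase level of the 4 dehydrogenases with anticarin-beta and 77.1% ± 3.40 with vehicle (SD, n = 3 each). RDH14 held 39.4% ± 3.35 with anticarin-beta and 14.5% ± 1.94 with vehicle (SD, n = 3 each), close to RDH10 in the treated cells. The share of RDH10 was 37.1% ± 0.383 in the libraries labelled CCT4 siRNA and 55.9% ± 1.30 with control siRNA (SD, n = 3 each). Lengths are of all annotated exons joined, so a gene that uses few of them is set too low.

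DHRS3 (ENSG00000162496, chromosome 1, bases 12567910 to 12617731, minus strand) encodes a retinaldehyde reductase that works against RDH10, binds it in a complex and is itself induced by retinoic acid. It had 207, 205 and 203 CPM with anticarin-beta, against 100.1, 112 and 109 CPM with vehicle. The treated libraries were all higher, by a log2 fold change of 0.94 ± 0.07 (SE; edgeR adjusted p = 7e-08). DHRS3 had 83.0, 79.9 and 76.0 CPM in the libraries labelled CCT4 siRNA, against 88.8, 101 and 94.9 CPM with control siRNA. There the log2 fold change was -0.26 ± 0.07 (SE) with no overlap, so DHRS3 was above vehicle with the compound and below control siRNA in the siRNA experiment.

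The counts of RDH10 over those of DHRS3 within a library do not depend on the scaling between libraries. The mean log2 ratio was -2.25 ± 0.04 with anticarin-beta and 2.03 ± 0.14 with vehicle (SD, n = 3 each), or 0.210 and 4.08 on the linear scale, a 19.4-fold difference. All 3 treated libraries had more DHRS3 than RDH10 counts and all 3 vehicle libraries the opposite. The exact permutation test gave p = 0.1, the smallest that 3 against 3 libraries allow, and 0.133 after Benjamini-Hochberg adjustment over 4 within-library measures. In the siRNA experiment the log2 ratio was -0.34 ± 0.09 in the libraries labelled CCT4 siRNA and 1.06 ± 0.16 with control siRNA (SD, n = 3 each), a difference of -1.40 that is not tested because RDH10 was chosen there.

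**Figure D2:**
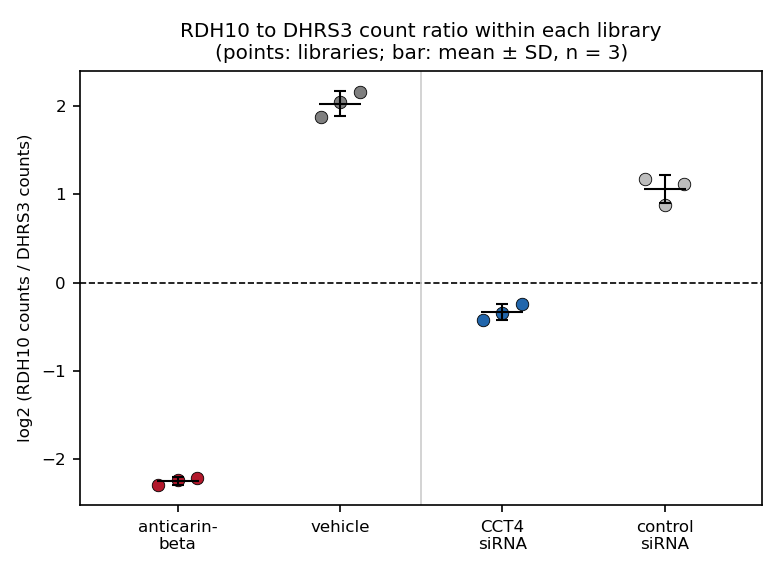
Log2 ratio of RDH10 to DHRS3 counts within each of the 12 libraries, by group, with points for libraries and bars for the mean ± SD. The ratio is below 0 in all anticarin-beta and CCT4 siRNA libraries and above 0 in all vehicle and control siRNA libraries.

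ALDH1A3 (ENSG00000184254, chromosome 15, bases 100877714 to 100916626, plus strand) makes retinoic acid from retinaldehyde. It had 379, 343 and 320.5 CPM with anticarin-beta, against 709.6, 759 and 841 CPM with vehicle. Every treated library was lower, and the log2 fold change was -1.15 ± 0.08 (SE; edgeR adjusted p = 2.69e-08). ALDH1A3 had 879, 879 and 892 CPM in the libraries labelled CCT4 siRNA, against 920.4, 915 and 969 CPM with control siRNA. The groups did not overlap, yet the log2 fold change was only -0.08 ± 0.08 (SE). Per kilobase of exon it had the highest mean of the members except with anticarin-beta, where ALDH1A3 was at 60.2 CPM and DHRS3 at 67.5 CPM per kilobase. An unnamed gene on the other strand, AC015712.2, shares 1585 exon bases with ALDH1A3, and adding all its counts left the log2 ratio of the means at -1.18 with anticarin-beta and at -0.12 with CCT4 siRNA.

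ALDH1A1 (ENSG00000165092, chromosome 9, bases 72900662 to 73080442, minus strand), which carries out the same step, was at or under the floor of 3 counts in every library. It had 2, 2 and 0 counts with anticarin-beta, 0, 2 and 1 with vehicle, 2, 0 and 1 in the libraries labelled CCT4 siRNA and 0, 0 and 1 with control siRNA. It was not tested, and 3 counts correspond to between 0.160 and 0.277 CPM in these libraries. The floor covers counting error only.

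The receptor genes were higher with anticarin-beta. RARA (ENSG00000131759, chromosome 17, bases 40309192 to 40357643, plus strand), a receptor found in most tissues, had 145, 137 and 141 CPM with anticarin-beta, against 57.5, 70.0 and 69.9 CPM with vehicle. The log2 fold change was 1.10 ± 0.10 (SE; edgeR adjusted p = 6.17e-07), with no overlap. RARG (ENSG00000172819, chromosome 12, bases 53210567 to 53232980, minus strand), known for its place in skin and skeleton, had 119, 119 and 111 CPM with anticarin-beta, against 63.6, 68.9 and 70.3 CPM with vehicle. It too rose in every treated library, by 0.79 ± 0.07 on the log2 scale (SE; edgeR adjusted p = 2.39e-07). Under library totals alone the log2 fold changes were 0.68 for RARA, 0.37 for RARG and 0.52 for DHRS3, all still called. In the siRNA experiment RARA had 109, 114 and 104 CPM in the libraries labelled CCT4 siRNA, against 102, 81.0 and 102 CPM with control siRNA. RARG had 110.4, 109 and 109 CPM in the libraries labelled CCT4 siRNA, against 91.0, 97.1 and 101 CPM with control siRNA. The log2 fold changes were 0.20 ± 0.10 for RARA and 0.19 ± 0.07 for RARG (SE), and neither gene overlapped between those groups.

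RARB (ENSG00000077092, chromosome 3, bases 25174332 to 25597932, plus strand) is the receptor best known as a direct target of retinoic acid. It had 9, 8 and 16 counts with anticarin-beta, against 5, 4 and 10 counts with vehicle, which is 0.944 ± 0.342 CPM with anticarin-beta and 0.347 ± 0.163 CPM with vehicle (SD, n = 3 each). The log2 fold change was 1.42 ± 0.42 (SE; edgeR adjusted p = 0.00811), and without the treated library of 16 counts it was 1.08 and no longer called (adjusted p = 0.055). RARB passed the low-count filter through its reads in the siRNA experiment. It did not pass, and was not tested, when the compound experiment was fitted alone. RARB had 13, 20 and 23 counts in the libraries labelled CCT4 siRNA, against 19, 16 and 24 with control siRNA, a log2 fold change of -0.03 ± 0.33 (SE) with overlap. A gene on the other strand with many reads, TOP2B, shares 28 exon bases with RARB, so the few RARB counts are uncertain if strand was not used. RARA-AS1 and AC080112.3 lie on the strand opposite RARA and share 556 and 291 exon bases with it.

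RARA made up 54.5% ± 1.09 of the summed counts of the 3 receptors with anticarin-beta and 49.1% ± 1.52 with vehicle (SD, n = 3 each; exact permutation p = 0.1, adjusted 0.133). RARG made up 45.1% ± 1.20 with anticarin-beta and 50.6% ± 1.54 with vehicle (SD, n = 3 each; exact permutation p = 0.1, adjusted 0.133). The libraries did not overlap for either gene, but 3 against 3 cannot give a smaller p. RARB made up 0.367% ± 0.139 with anticarin-beta and 0.258% ± 0.109 with vehicle (SD, n = 3 each; exact permutation p = 0.4). In the siRNA experiment the share of RARA was 49.6% ± 1.08 in the libraries labelled CCT4 siRNA and 49.3% ± 3.69 with control siRNA (SD, n = 3 each).

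**Figure D3:**
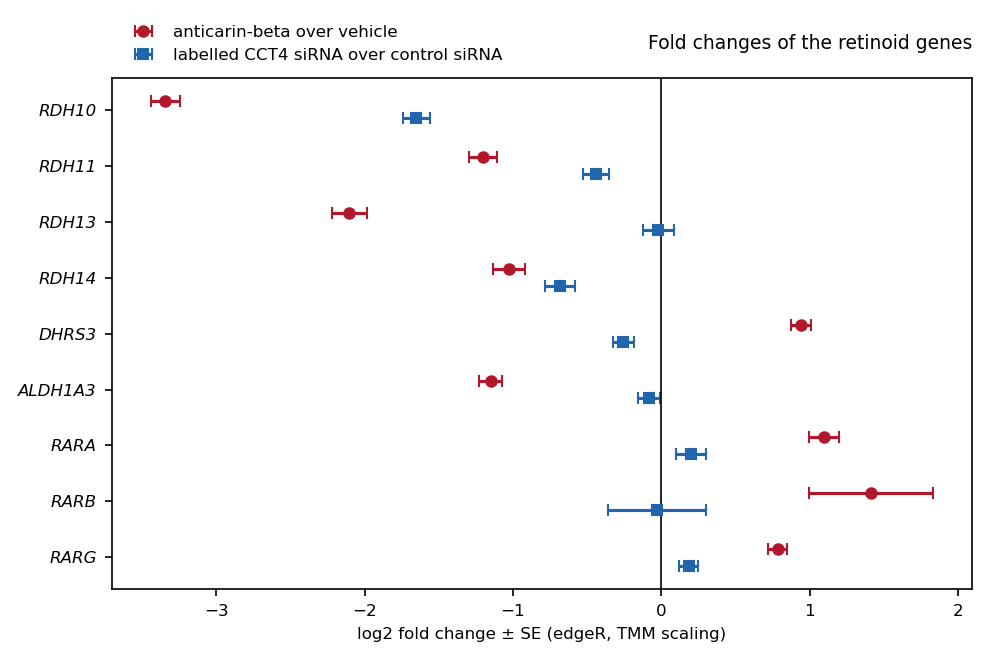
Log2 fold change and SE of the 9 members tested, for anticarin-beta against vehicle and for CCT4 siRNA against control siRNA, each from the fit over 12 libraries. RDH10 is the lowest in both, at -3.34 and -1.65, and the receptor genes and DHRS3 lie above 0 with anticarin-beta.

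RARB and DHRS3 are the members best known to be induced by retinoic acid, so the 250 bases before a start of each are printed, from RefSeq on GRCh38.p14, with the motifs named beside them in capitals. The core motif was searched on both strands as AGGTCA or, with another first letter, as GGGTCA, and also as the forms AGTTCA and, with another first letter, GGTTCA. Single copies were counted, and pairs in the same direction with 1, 2 or 5 bases between them. RARB, chr3:25428013-25428262, plus strand, capitals marking a pair with 5 bases between (a single GGGTCA further from the start is left in lower case):
RARB: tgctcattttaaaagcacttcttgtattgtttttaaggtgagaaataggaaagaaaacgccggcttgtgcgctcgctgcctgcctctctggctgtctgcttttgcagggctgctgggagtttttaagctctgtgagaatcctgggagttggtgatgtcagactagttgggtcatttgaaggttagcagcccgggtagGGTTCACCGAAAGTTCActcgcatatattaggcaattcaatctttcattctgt
DHRS3, chr1:12616790-12617039, minus strand, capitals marking a single core motif:
DHRS3: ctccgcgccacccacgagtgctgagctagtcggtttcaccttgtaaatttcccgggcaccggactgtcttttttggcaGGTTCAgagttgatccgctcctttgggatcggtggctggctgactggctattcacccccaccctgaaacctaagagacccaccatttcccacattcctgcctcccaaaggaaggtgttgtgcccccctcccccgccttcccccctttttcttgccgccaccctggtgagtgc
Of 17 windows of 250 bases before to 50 after a start, held by 9 of the 10 members, this RARB window alone had such a pair, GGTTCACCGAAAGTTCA, at 53 to 37 bases before the start. The member without a window is RDH10, so no start of RDH10 was searched. The spacing of 5 occurred in 0.0883% of all 35116 windows and any of the 3 spacings in 0.259%, while at least 1 core motif occurred in 38.6%. RARB has 4 of these windows, and counts per gene do not show which start was used. The other DHRS3 windows besides that of the printed start are chr1:12618161-12618460, with 0 core motifs, and chr1:12596564-12596863, with 1. For both genes the printed start is one whose window holds a motif. A match is a description of the letters, and the windows without one say nothing of the factor.

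Other genes of the pathway were taken in 5 lists with 73 genes, of which 51 were tested, and 22 had too few reads. With anticarin-beta, 19 rose and 19 fell, together 74.5% of those tested beside 73.0% of all genes, a share near the background. Their median log2 fold change was 0.05, beside -0.06 for all genes, and under library totals alone 15 rose and 25 fell. In the siRNA comparison, 5 rose and 2 fell, together 13.7% beside 19.7% of all genes, with a median of 0.03 beside 0.01. Library totals alone gave 2 higher and 6 lower there.

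Of 13 genes for uptake, binding and storage, 7 were tested. With anticarin-beta 1 rose and 4 fell, together 71.4% of those tested beside 73.0% of all genes, with a median of -0.35. CRABP2, which carries retinoic acid to the nucleus, averaged 62.6 ± 6.12 CPM with anticarin-beta and 128 ± 20.5 CPM with vehicle (SD, n = 3 each; log2 fold change -1.04 ± 0.13, SE; edgeR adjusted p = 7.9e-06). STRA6, the cell surface receptor for the retinol carrier, fell by 1.91 ± 0.38 at a level of 0.366 CPM with anticarin-beta and 1.43 CPM with vehicle. SCARB1, which takes up carotenoids, fell by 0.35 ± 0.07, and RBP4, the blood carrier of retinol, rose by 0.92 ± 0.17 on the log2 scale. LRAT, which makes retinyl esters, had 2 counts over the 12 libraries and was not tested. In the libraries labelled CCT4 siRNA edgeR called 0 of the 7, beside 19.7% of all genes. At an unadjusted p under 0.05 there were 2, while DESeq2 called 0 and limma-voom 1. The smallest p there was that of STRA6, at -0.78 ± 0.26 (SE; edgeR adjusted p = 0.0554), and CRABP2 was at -0.30 ± 0.12 (SE; edgeR adjusted p = 0.11).

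Of 20 other enzymes that oxidize or reduce retinol, retinaldehyde or carotenoids, 12 were tested, and 3 rose and 7 fell with anticarin-beta, beside 34.9% of all genes higher and 38.0% lower. Under both looser low-count filters 5 rose. RDH12, not tested here, had 23 counts with anticarin-beta and 0 with vehicle, and ADH1B had 13 with anticarin-beta and 0 with vehicle. Of the 12 tested, 83.3% were called, beside 73.0% of all genes. The median of the 12 was -0.85. It was -0.56 with DHRS9, which had 0 counts with anticarin-beta and 1 with vehicle, set at 3 counts over the treated group. AKR1B10, an aldo-keto reductase of retinaldehyde, averaged 9.47 ± 0.375 CPM with anticarin-beta and 52.4 ± 13.0 CPM with vehicle (SD, n = 3 each; log2 fold change -2.47 ± 0.20, SE; edgeR adjusted p = 2.19e-07). AKR1C3, a relative that also reduces steroids, fell by 2.23 ± 0.18, and the peroxisomal reductase DHRS4 fell by 1.13 ± 0.15 on the log2 scale. DHRS4 shares 331 exon bases with DHRS4-AS1 on the other strand, which had 1144 counts over the 12 libraries. The DHRS4 values are thus uncertain if strand was not used. Genes of the aldo-keto reductase family are close in sequence, so their counts are uncertain. BCO2, which cleaves carotenoids off centre, rose by 2.09 ± 0.15, to 35.8 CPM with anticarin-beta, against 8.39 CPM with vehicle, and shares exon bases with another gene on its strand. AKR1B1, another aldo-keto reductase, was the 1 gene called in the libraries labelled CCT4 siRNA, at 559 ± 104 CPM, and 282 ± 3.74 CPM under control siRNA (SD, n = 3 each; log2 fold change 0.99 ± 0.13, SE; edgeR adjusted p = 0.000388). That is 8.33% of those tested, beside 19.7% of all genes.

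Of 7 further genes of retinoic acid synthesis and breakdown, 5 were tested, and 2 rose and 1 fell with anticarin-beta. Together these are 60% of those tested beside 73.0% of all genes, and the median was 0.15. CYP26B1, which breaks down retinoic acid, averaged 371 ± 67.6 CPM with anticarin-beta and 168 ± 42.3 CPM with vehicle (SD, n = 3 each; log2 fold change 1.14 ± 0.25, SE; edgeR adjusted p = 0.00122). ALDH8A1, which oxidizes 9-cis-retinaldehyde, rose by 2.18 ± 0.31 at a low level of 2.46 CPM with anticarin-beta and 0.530 CPM with vehicle. CYP2S1, which can metabolize retinoic acid, fell by 1.24 ± 0.24 on the log2 scale. CYP26A1, the retinoic-acid-induced relative of CYP26B1, had 20 counts over the 12 libraries and was not tested. In the libraries labelled CCT4 siRNA CYP1B1, which can oxidize retinol, was the 1 gene called, at 99.5 ± 0.669 CPM, and 55.3 ± 3.16 CPM under control siRNA (SD, n = 3 each; log2 fold change 0.85 ± 0.14, SE; edgeR adjusted p = 0.0016). That is 20% of those tested, beside 19.7% of all genes.

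Of 15 retinoid X receptors and receptor cofactors, 14 were tested, and 10 rose and 1 fell with anticarin-beta, beside 34.9% of all genes higher and 38.0% lower. Their median was 0.63, beside -0.06 for all genes. NRIP1, a corepressor that binds receptors carrying their ligand, averaged 321 ± 7.77 CPM with anticarin-beta and 42.0 ± 6.73 CPM with vehicle (SD, n = 3 each; log2 fold change 2.93 ± 0.11, SE; edgeR adjusted p = 1.34e-10). The acetyltransferase coactivators EP300 and CREBBP rose by 1.86 ± 0.10 and 1.71 ± 0.08, and the Mediator subunit MED1 by 1.38 ± 0.10 on the log2 scale. The gene that fell was RXRA, at 92.0 CPM with anticarin-beta and 176 CPM with vehicle, whereas RXRB was at 309 CPM with anticarin-beta and 173 CPM with vehicle. Both receptors are partners of the retinoic acid receptors. RXRB shares 244 exon bases with SLC39A7 on the other strand, which had 116628 counts over the 12 libraries, so the RXRB values are uncertain if strand was not used. Under library totals alone this list had 7 higher and 4 lower, and under upper-quartile scaling 7 higher and 2 lower. Among the genes that rose, NCOA2 lost its call in 14 of 21 alternatives, NCOA1 in 7 and SIN3A in 1. Each of them also changed direction under library totals alone. In the siRNA comparison 3 rose and 2 fell, together 35.7% of those tested beside 19.7% of all genes. Library totals gave 0 higher and 3 lower there. PPARD, a receptor that also pairs with RXR, fell by 0.40 ± 0.07 (SE; edgeR adjusted p = 0.00162), and the corepressor NCOR1 by 0.34 ± 0.09 (SE; edgeR adjusted p = 0.0267). RXRA, EP300 and CREBBP rose by 0.33, 0.37 and 0.28 on the log2 scale. The call of CREBBP was lost without any 1 of the 6 siRNA libraries. NCOR1 and EP300 lost theirs when replicate 1 or 2 of CCT4 siRNA was left out. Omitting a control siRNA library did the same to NCOR1 for replicates 1 and 2, and to EP300 for replicates 2 and 3. NRIP1, EP300 and CYP1B1 share exon bases with another gene on their strand, so their counts are uncertain. For EP300 that gene is a microRNA with 54 shared bases.

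Of 25 genes known as targets of retinoic acid in various cells, 17 were tested, and 5 rose and 8 fell with anticarin-beta. Together these are 76.5% of those tested beside 73.0% of all genes, a share near the background, and the median was 0.02. CYP26B1, STRA6, CRABP2 and NRIP1 stand in this list as well as in those above. RARRES3, a growth suppressor, fell to 4.57 CPM with anticarin-beta, against 12.9 CPM with vehicle. The homeobox gene MEIS1 rose by 1.39 ± 0.13 on the log2 scale. In the libraries labelled CCT4 siRNA edgeR called 0 of the 17, beside 19.7% of all genes. At an unadjusted p under 0.05 there were 4, while DESeq2 called 1 and limma-voom 2. The smallest p was that of HOXB4, at 0.43 ± 0.14 (SE; edgeR adjusted p = 0.05), whose groups overlapped. HOXB4 shares 159 exon bases on its strand with HOXB3, which had 5200 counts over the 12 libraries, so its counts are uncertain.

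**Figure D4:**
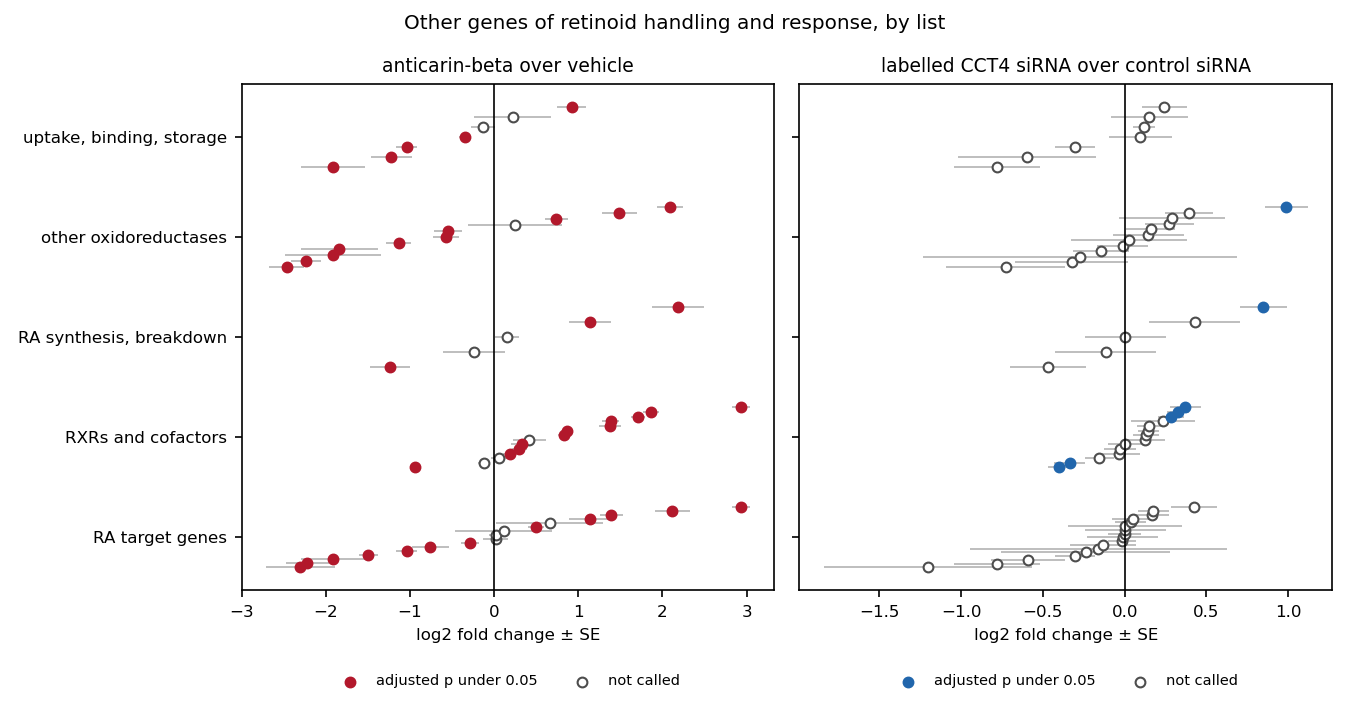
Log2 fold change of the tested genes of the 5 lists in both comparisons, with filled points for genes called at an adjusted p under 0.05; DHRS9 and HOXD4, with 0 counts in the anticarin-beta libraries, are left out of the compound comparison. With anticarin-beta the receptor cofactors lie mostly above 0 (median 0.63) and the other oxidoreductases mostly below it (median -0.85 over the 12 tested).

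The genes whose log2 level over the 12 libraries was most like that of RDH10, among 11614 genes averaging 5 CPM or more, were CCDC127, RHOBTB2, IRX3, MT-ND5 and MT-ND4. Their Pearson correlations with RDH10 ran from 0.98 to 0.9936 and their Spearman correlations from 0.9091 to 0.958. The libraries fall into 4 groups and share their depth and scaling, so this is a description. CCDC127, the closest, averaged 25.5 CPM with anticarin-beta and 55.6 CPM with vehicle, and 29.8 CPM in the libraries labelled CCT4 siRNA against 44.4 CPM with control siRNA. Its order of groups was that of RDH10, over a narrower range. MT-ND4, a mitochondrially encoded subunit of respiratory complex I, averaged 889 CPM with anticarin-beta and 6081 CPM with vehicle, and 1573 CPM in the libraries labelled CCT4 siRNA against 2737 CPM with control siRNA.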

How the data were processed

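RNA of 12 MG63 libraries was measured. The authors deposited raw counts per gene in 1 table of 50868 genes, not normalized. A TruSeq stranded kit was used, per the labels' protocols, and STAR 2.5.2a, featureCounts 1.5.0, Subread and hg38 are named in the submitters' processing notes. The annotation release, strand setting and handling of multiply mapped reads are not given in the sources.

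Groups came from the labels. Replicates differed by more than sampling noise (chi-square per degree of freedom 8.48 to 26.5). The vehicle pairs were highest, at 24.8 and 26.5 with replicate 1 and 13.5 for replicates 2 and 3. No pair of another group exceeded 10.9. Counts were fitted with edgeR 4.0.16 (R 4.3.3; quasi-likelihood test, two-sided, TMM, filterByExpr, 1 mean per group over all libraries, 8 residual degrees of freedom), with Benjamini-Hochberg adjustment over 17717 genes and calls at 0.05. The prior count was 0.125, and SEs derive from the F statistic. The step was run on simulated data in which a small part of the genes changed, up and down alike. Changes of 1.5-fold were recovered for 32.8% of these genes in the compound comparison and 50.7% in the siRNA comparison. At 2-fold the shares were 86.6% and 88.1%, and 5.19% and 4.79% of the calls were false. Where 73.0% of genes are called, as with anticarin-beta, this does not check the scaling. Positions and exon overlaps come from GENCODE 29, which held 98.5% of the gene identifiers.

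The members and lists were chosen with earlier results of these data known. Named are all members, CCT4, overlapping genes, up to 4 genes per list and comparison with the smallest p at a mean of at least 1 CPM in a group, and the 5 genes most like RDH10; a gene that this takes is not reported here. RXRB, NCOR1, NCOA1, NCOA2, SIN3A and, in the compound comparison, RXRA were chosen after their values were seen. So were the genes named for having few reads or for overlapping a listed gene. Alternatives were scaling by RLE, upper quartiles or library totals, limma-voom (limma 3.58.1) and DESeq2 1.42.0, other filters, each experiment alone, a replicate block and the omission of each library. Adding opposite-strand counts was chosen after seeing the data.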

Additional observations from a re-analysis of the deposited data

How the results depend on the processing

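Of 188 alternative values of the members with anticarin-beta, 187 kept direction and call, the exception being RARB without anticarin-beta replicate 3 (log2 fold change 1.08). RARB had no value in the compound experiment fitted alone, where it did not pass the filter. RDH10 ran from -3.76 to -3.27. The number of members called was 8 to 9, and of list genes 35 to 40. Of 2138 values of list genes, 2057 were counted as unchanged, while 51 lost and 24 gained a call. The unchanged values include changes of direction where neither the main fit nor the alternative called the gene. With anticarin-beta, for example, RBP7 ran from -0.57 to 0.50 and HOXA4 from -0.30 to 0.92, never called. Where either fit called the gene, 6 values reversed, all under library totals alone with anticarin-beta. These were NCOR1 (-0.36), NCOA1 (-0.089), NCOA2 (-0.23), SIN3A (-0.12), TGM2 (-0.39) and HOXB4 (-0.40). That scaling moved the median of all genes to -0.48, and 8 of 9 members kept their order of groups under it, all but RARG.

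The siRNA calls among list genes were fewer and less stable. Leaving out 1 library gave 4 to 9 in place of 7, with 3 to 6 higher and 1 to 3 lower. It was 4 without control siRNA replicate 2 and 4 without CCT4 siRNA replicate 1. Library totals alone gave 2 higher and 6 lower, and put RDH10 at -1.78. The cause was not tested. Same-numbered libraries did not vary together (correlations -0.0308 to 0.0264), so no pairing by number was seen, though these values cannot show its absence. A replicate block left 1 list gene lower. Leaving out 1 library put the difference in the log2 ratio of RDH10 to DHRS3 between -4.35 and -4.21 for anticarin-beta minus vehicle. For CCT4 siRNA minus control siRNA that difference lay between -1.49 and -1.34. Depth limits RARB and ALDH1A1, which had few counts.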
